A study of Homo sapiens with 10 samples.

Results

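The Notch receptors, ligands and HES targets described here are 10 genes, taken by symbol from the 58735 lines of the deposited count table: the receptors NOTCH1, NOTCH2 and NOTCH3, the ligands DLL4, JAG1 and JAG2, the nuclear effector RBPJ, and the target genes HES1, HES4 and HEY1. All 10 were found, each on 1 line, and 8 had enough counts to be tested. NOTCH3 and HEY1 did not, and are given by their counts. The series holds 10 RNA-seq libraries of HCMECs, a human brain endothelial cell line per the labels. A control siRNA, a short RNA used to silence a gene, was given in 5 of them (siCtrl), and an siRNA against USP9X in the other 5 (siUSP9X). USP9X is a deubiquitinase, an enzyme that removes ubiquitin from proteins. All cells were transfected for 48 h and then given the ligand Wnt3a for 12 h, so siUSP9X and siCtrl are compared under Wnt3a throughout, and cells without Wnt3a were not analysed here. Nothing in the labels says that libraries of 1 group are separate cultures. The p-values then measure only the spread between these samples, which may be technical. All results are from 1 line and 1 labelled knockdown.

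Notch is a receptor that is cut when it binds a ligand on a neighbouring cell. The pull of the ligand cell, which takes up its own ubiquitinated ligand by endocytosis, exposes the receptor to the protease ADAM10 and then to gamma-secretase, and the freed intracellular part enters the nucleus. There it joins the DNA-binding protein RBPJ and a Mastermind-like coactivator and turns on genes of the HES and HEY families, which encode repressors. In growing vessels DLL4 on tip cells signals to neighbouring stalk cells, and Notch signalling also sets arterial identity.

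Library totals ran from 15958362 to 26467787 counts. USP9X itself stood at 283 to 415 CPM in siCtrl and 20.7 to 68.7 CPM in siUSP9X, where CPM are counts divided by the library total, scaled by its normalization factor, and multiplied by 1e+06. The highest siUSP9X value was in replicate 2, a library that stood apart: 1.96% of its counts were from ribosomal protein genes, where the other 4 siUSP9X libraries had 4.10 to 4.77%. Results that moved by over 1.5 times, or changed their call, without it are given both ways. Of 12 endothelial markers 4 were tested, with ENG and ESAM at 84.0 and 161 CPM in siCtrl, while PECAM1, KDR, TEK, TIE1 and VWF had 1 to 8 counts over the 5 siCtrl libraries and ERG and EMCN had 0. Defining markers of the labelled cell type were thus at or near 0 in both groups. The 12 endothelial markers summed to 236 to 299 CPM in siCtrl and 109 to 254 CPM in siUSP9X, with the 109 in replicate 2. There ESAM stood at 67.1 CPM, against 162 ± 11.3 CPM in the other 4 siUSP9X libraries (SD, n = 4). No endothelial marker passed the test below with all libraries. At an unadjusted p under 0.05 (edgeR) 1 of the 4 was lower, against 11.9% of all tested genes. With DESeq2 1 was lower, against 7.06%. ENG and EGFL7 were lower without siUSP9X replicate 2, with log2 fold changes of -0.39 and -0.61 (edgeR adjusted p of 0.00192 and 0.00788). In that fit 11.5% of all tested genes were lower. CDH5, a tested marker with 53 and 74 counts per group, went the other way and did not pass. Its log2 fold change was 0.68 ± 0.34 (SE, edgeR adjusted p = 0.214), and 0.66 ± 0.37 (adjusted p = 0.223) without that library. CLDN5 was too low to test, with 22 counts over the siCtrl libraries against 6 over the siUSP9X ones. Its siCtrl level was 3.12 times the siUSP9X level, with a counting interval of 1.23 to 9.40. The 7 epithelial markers summed to 3313 to 4173 CPM in siCtrl and 2029 to 2755 CPM in siUSP9X, with the 2029 in replicate 2. Nearly all of this was KRT8 and KRT18, which were lower with and without that library (edgeR). The shares of all tested genes that were lower were 3.22% with it and 11.5% without it. EPCAM was lower without replicate 2 (edgeR), and KRT5 and KRT14 were at 0. The part of these differences in the results on Notch genes was not tested.

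Among the 8 tested Notch genes DLL4 and HES4 were lower in siUSP9X cells, and 6 did not pass the threshold of an adjusted p under 0.05. DLL4 mRNA was 2.75-fold lower and HES4 mRNA 2.03-fold lower (edgeR quasi-likelihood test, Benjamini-Hochberg adjusted p of 0.00563 and 0.0456). None was higher with edgeR, and over all 13934 tested genes 3.22% were lower and 4.09% higher. With limma-voom 2 were lower and none higher, against 3.32% and 3.67% of all genes tested. With DESeq2 RBPJ was higher and JAG2 also lower, making 1 higher and 3 lower against 8.10% and 7.06%. At an unadjusted p under 0.05 (edgeR) 1 of the 8 was higher and 3 were lower, against 15.9% and 11.9%. The groups did not overlap for 3 of the 8, DLL4, HES4 and RBPJ, against 14.6% of all tested genes. Without siUSP9X replicate 2, DLL4, HES4 and JAG2 were lower and RBPJ higher, where 11.5% of tested genes were lower and 11.9% higher. The median log2 fold change was -0.22 over the 8 genes and 0.026 over all tested genes. Without siUSP9X replicate 2 these medians were -0.24 and 0.0065. In bulk RNA, fewer cells that make a transcript and less of it per cell cannot be told apart.

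**Figure D1:**
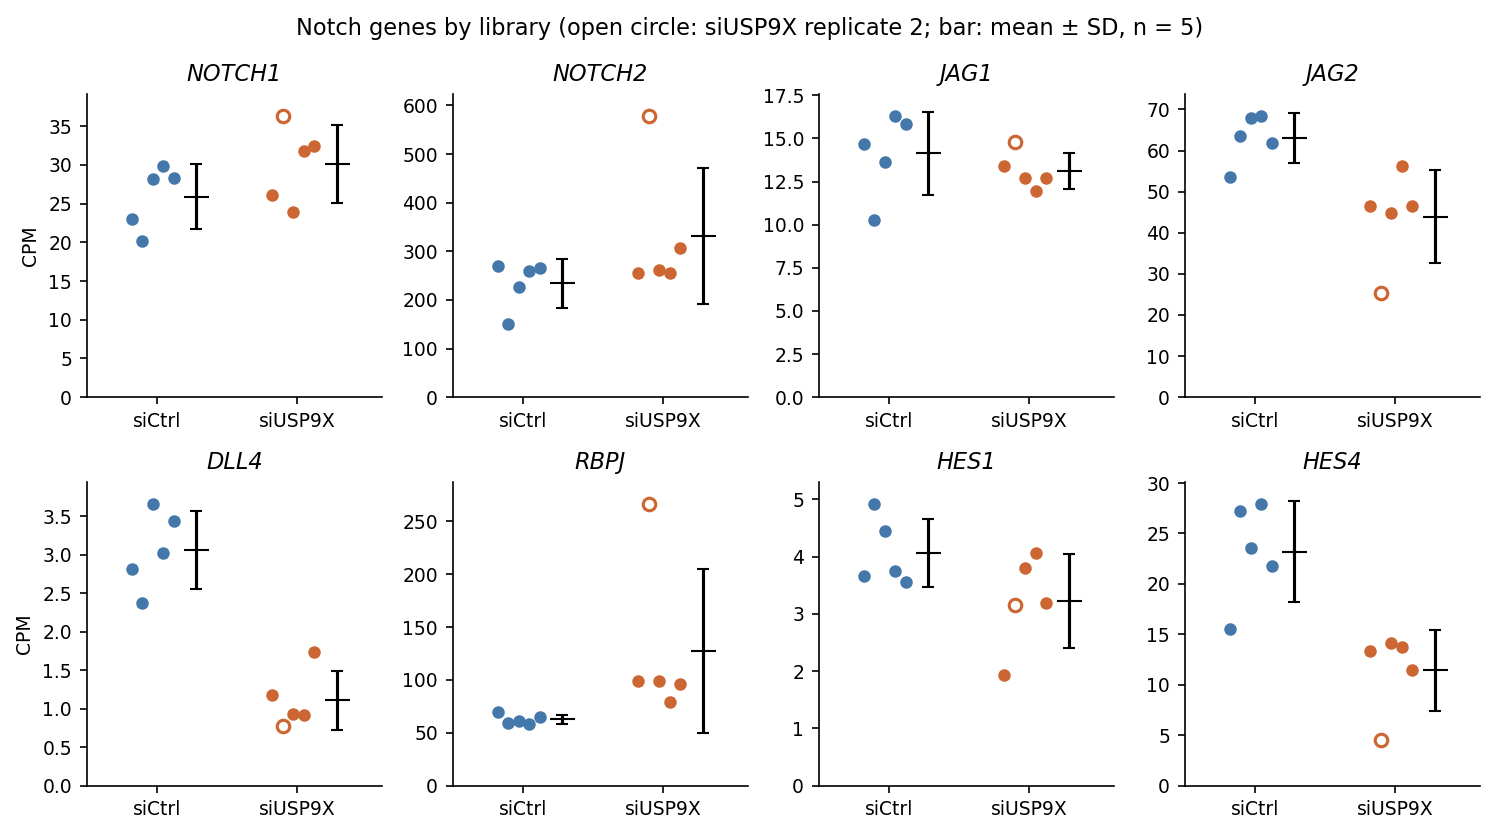
CPM of the 8 tested Notch genes in each library (points), with the mean ± SD of each group (bars, n = 5). The siUSP9X libraries of DLL4 (0.774 to 1.74 CPM) and HES4 (4.53 to 14.1 CPM) all lie below the siCtrl libraries. The open circle of siUSP9X replicate 2 is the highest of all libraries for NOTCH1, NOTCH2 and RBPJ and the lowest for DLL4, JAG2 and HES4.

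The receptors showed no change that passed the threshold. NOTCH2 (ENSG00000134250.19, chromosome 1, 119911553 to 120069626, minus strand, GRCh38) was the most abundant receptor mRNA, with 270, 150, 226, 259 and 266 CPM in siCtrl replicates 1 to 5 and 256, 578, 262, 255 and 307 CPM in siUSP9X replicates 1 to 5. The groups overlapped, and the 4 siUSP9X libraries other than replicate 2 lay near the upper siCtrl values. Its log2 fold change was 0.50 ± 0.25 (SE, edgeR adjusted p = 0.208), and 0.21 ± 0.13 (adjusted p = 0.279) without siUSP9X replicate 2. NOTCH2 shares nearly identical sequence with the human NOTCH2NL genes, between which counting can split reads. NOTCH2NLA, the 1 of them matched in the table, held 0.299 to 0.453% as many counts as NOTCH2 in siCtrl and 0.145 to 0.889% in siUSP9X, where replicate 2 had 93 of the 143 counts.

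NOTCH1 (ENSG00000148400.10, chromosome 9, 136494433 to 136545786, minus strand), the receptor best known for its part in vessel sprouting, stood at 23.0, 20.1, 28.2, 29.9 and 28.3 CPM in siCtrl and 26.1, 36.3, 23.9, 31.8 and 32.4 CPM in siUSP9X. The ranges overlapped broadly, and the log2 fold change was 0.22 ± 0.15 (SE, edgeR adjusted p = 0.344), and 0.14 (adjusted p = 0.441) without siUSP9X replicate 2. An antisense gene inside the NOTCH1 locus had 6 and 4 counts over the 5 libraries of each group, and its exons do not overlap those of NOTCH1.

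Among DLL4, JAG1 and JAG2 only DLL4 passed the threshold with all libraries (edgeR). All had negative log2 fold changes, and whether these differed between the ligands was not tested. DLL4 (ENSG00000128917.7, chromosome 15, 40929333 to 40939073, plus strand), the ligand of endothelial tip cells, had 2.82, 2.37, 3.66, 3.03 and 3.44 CPM in siCtrl replicates 1 to 5 and 1.17, 0.774, 0.937, 0.923 and 1.74 CPM in siUSP9X replicates 1 to 5. The groups did not overlap, with all siUSP9X values under the lowest of siCtrl. These levels rested on 44 to 80 counts per library in siCtrl and 14 to 30 in siUSP9X. The mean went from 3.06 ± 0.508 to 1.11 ± 0.381 CPM (SD, n = 5 each), and its log2 fold change was -1.46 ± 0.24 (SE, edgeR adjusted p = 0.00563). DLL4 kept its call in all 10 fits that left out 1 library, with log2 fold changes from -1.68 to -1.35 and adjusted p up to 0.0223.

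JAG2 (ENSG00000184916.8, chromosome 14, 105140981 to 105168824, minus strand), a Jagged-type ligand, had 53.6, 63.6, 67.8, 68.4 and 61.8 CPM in siCtrl and 46.6, 25.4, 44.7, 56.2 and 46.6 CPM in siUSP9X. The groups overlapped only through siUSP9X replicate 4, which lay above siCtrl replicate 1. The log2 fold change was -0.52 ± 0.18 (SE, edgeR adjusted p = 0.0952). Without siUSP9X replicate 2, the lowest library, it was -0.38 ± 0.093 (adjusted p = 0.00718), so the difference was smaller and the spread narrower. A noncoding transcript annotated on the same strand overlaps exons of JAG2 and had 0 counts in all libraries.

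JAG1 (ENSG00000101384.12, chromosome 20, 10637684 to 10673999, minus strand), the other Jagged ligand, differed by less than the spread between libraries. It ranged from 10.2 to 16.3 CPM in siCtrl and from 11.9 to 14.8 CPM in siUSP9X, so the siUSP9X values fell inside the siCtrl range (log2 fold change -0.11 ± 0.14, SE, edgeR adjusted p = 0.604). An antisense gene that overlaps exons of JAG1 had 0 counts.

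RBPJ (ENSG00000168214.20, chromosome 4, 26163455 to 26435131, plus strand), through which all 4 Notch receptors act on DNA and which represses targets in their absence, did not overlap between groups but did not pass the threshold with edgeR. It stood at 69.4, 59.4, 61.4, 58.6 and 65.0 CPM in siCtrl replicates 1 to 5 and at 98.6, 266, 98.7, 79.0 and 95.9 CPM in siUSP9X replicates 1 to 5. All siUSP9X libraries lay above all siCtrl libraries, and replicate 2 lay far above the other 4. With all libraries the log2 fold change was 1.02 ± 0.30 (SE, edgeR adjusted p = 0.0588). Without siUSP9X replicate 2 it was 0.57 ± 0.087 (adjusted p = 0.000159), and the siUSP9X mean was 93.0 ± 9.48 CPM (SD, n = 4) against 62.8 ± 4.47 CPM (SD, n = 5) in siCtrl. Leaving out siUSP9X replicate 4 also took RBPJ past the threshold, and leaving out any of the other 8 libraries did not. Reads from the processed RBPJ pseudogenes would count elsewhere: of 4 matched, RBPJP2 had 1 count and RBPJP5, RBPJP6 and RBPJP7 had 0.

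**Figure D2:**
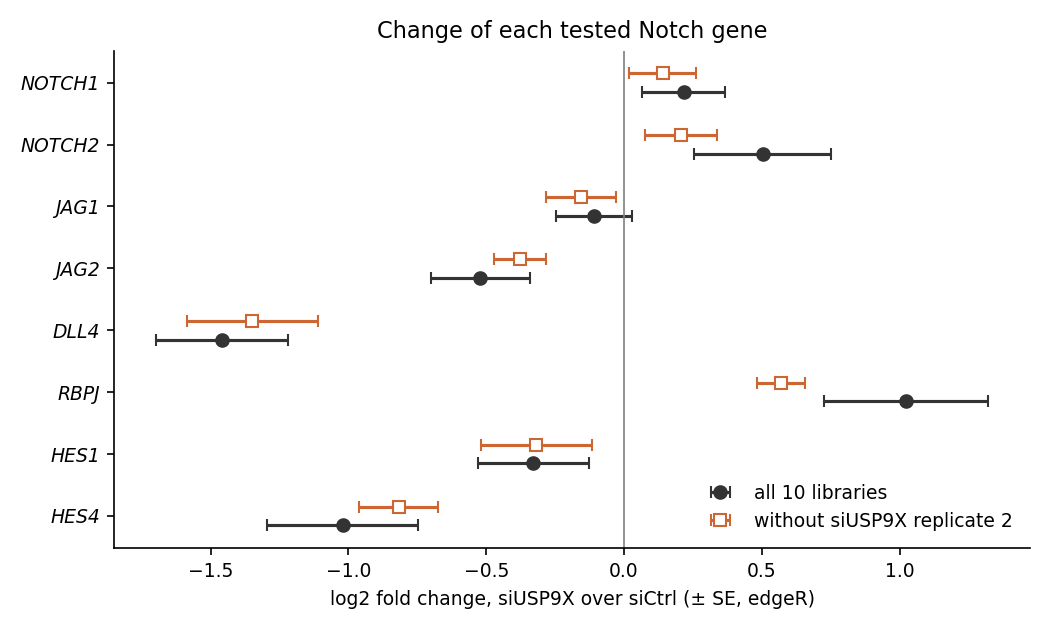
Log2 fold change of siUSP9X over siCtrl for each tested Notch gene, with its SE (edgeR), for all 10 libraries (filled circles) and without siUSP9X replicate 2 (open squares). DLL4 goes from -1.46 to -1.35, while RBPJ moves from 1.02 to 0.57 and NOTCH2 from 0.50 to 0.21.

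RBPJ binds DNA at the motif TGGGAA, preferably in the longer form GTGGGAA, and the HES1 promoter is a classic example of such sites. The promoters below are shown to set the measured targets beside that motif. They are RefSeq sequences on GRCh38.p14 from 150 bases to 1 base before the transcription start, 5′ to 3′ on the gene's strand, with every match to either form on either strand in capitals. They lie at chr3:194135998-194136147 on the plus strand (HES1), chr1:1000098-1000247 on the minus strand (HES4) and chr4:26319596-26319745 on the plus strand (RBPJ, 1 of its 5 annotated starts in the RefSeq table).
HES1: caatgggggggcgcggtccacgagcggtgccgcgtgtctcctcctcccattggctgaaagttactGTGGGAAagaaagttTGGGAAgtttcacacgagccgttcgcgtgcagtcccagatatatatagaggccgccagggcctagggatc
HES4: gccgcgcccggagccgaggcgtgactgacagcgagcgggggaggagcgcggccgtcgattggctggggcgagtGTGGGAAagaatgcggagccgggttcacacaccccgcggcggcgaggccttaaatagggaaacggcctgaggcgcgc
RBPJ: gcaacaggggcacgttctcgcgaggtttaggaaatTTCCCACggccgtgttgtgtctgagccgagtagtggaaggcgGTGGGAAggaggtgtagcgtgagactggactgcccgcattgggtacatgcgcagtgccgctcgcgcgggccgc
HES1 holds GTGGGAA starting 85 bases before the start and TGGGAA starting 70 bases before it, both in the same direction. HES4 holds GTGGGAA starting 77 bases before its start. The RBPJ promoter holds GTGGGAA starting 73 bases before its start and the reverse complement starting 115 bases before it. GTGGGAA contains TGGGAA, so a match to the longer form also counts for the shorter. Only these exact words were searched. Variants of the motif stay in lower case, so the capitals do not give the number or layout of RBPJ sites in a promoter.

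Promoters from 250 bases before to 50 after the start were in the RefSeq table for 9 of the 10 genes, with 1 start for each gene but RBPJ. Neither form was found in those of NOTCH1, NOTCH2, NOTCH3, JAG1, JAG2 and DLL4, or at the other 4 RBPJ starts. Of all 35116 promoters of that length, 24.0% held TGGGAA and 6.25% held GTGGGAA, on either strand. A pair of matches to TGGGAA or more was present in 3.80% and a pair to GTGGGAA or more in 0.248%. A match of letters describes the sequence and does not show that RBPJ binds there in these cells.

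Of the motif-bearing targets HES4 and HES1, HES4 stood at the higher level and passed the threshold, and HES1 did not pass it. HES4 (ENSG00000188290.10, chromosome 1, 998962 to 1000172, minus strand), a basic helix-loop-helix repressor that is present in humans and absent from mice, had 15.5, 27.2, 23.5, 27.9 and 21.8 CPM in siCtrl replicates 1 to 5. In siUSP9X replicates 1 to 5 it had 13.3, 4.53, 14.1, 13.7 and 11.5 CPM. No siUSP9X library reached the lowest siCtrl library, replicate 1, which lay close above 14.1 CPM. The mean fell from 23.2 ± 4.98 to 11.4 ± 3.99 CPM (SD, n = 5 each), and the log2 fold change was -1.02 ± 0.27 (SE, edgeR adjusted p = 0.0456). Without siUSP9X replicate 2 it was -0.82 ± 0.14 (adjusted p = 0.000528). Leaving out siCtrl replicate 1 also kept the call, and leaving out any of the other 8 libraries ended it, with adjusted p up to 0.116.

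HES1 (ENSG00000114315.3, chromosome 3, 194136145 to 194138732, plus strand), the most widely used readout of Notch activity, did not pass the threshold. It had 3.66, 4.91, 4.44, 3.74 and 3.55 CPM in siCtrl and 1.94, 3.15, 3.81, 4.06 and 3.19 CPM in siUSP9X. The ranges overlapped, with siUSP9X replicate 1 the lowest of the 10 libraries. Its log2 fold change was -0.33 ± 0.20 (SE, edgeR adjusted p = 0.292), and -0.32 ± 0.20 without siUSP9X replicate 2. The libraries held 67 to 99 counts of HES1 in siCtrl and 33 to 66 in siUSP9X. Whether HES4 and HES1 changed by different amounts was not tested.

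Transcripts of NOTCH3 and HEY1 were close to the limit of detection. NOTCH3, the receptor typical of pericytes and smooth muscle, had 24 counts in siCtrl as a whole, which is 0.238 CPM (0.153 to 0.354, the exact 95% Poisson interval). In siUSP9X it had 16, or 0.187 CPM (0.107 to 0.303). HEY1 (chromosome 8, 79764010 to 79767863, minus strand), a Notch target of arterial endothelium, had 1, 4, 1, 4 and 1 counts in siCtrl replicates 1 to 5. In siUSP9X it had 2 counts, both in replicate 2, and 0 in the other 4 libraries. The siCtrl level was 4.67 times the siUSP9X level with a counting interval of 1.02 to 43.4, and with so few counts the size is not resolved. Intervals cover counting error only. Of 8 mural cell markers on a line of their own, MCAM stood at 285 CPM in siCtrl, but endothelial cells express it too, and PDGFRB, the defining pericyte receptor, had 4 and 8 counts in the 2 groups. The smooth muscle markers ACTA2 and MYH11 stood at 1.16 and 1.07 CPM in siCtrl. In siUSP9X they stood at 1.06 and 1.62 CPM, and neither passed the threshold (edgeR adjusted p of 0.792 and 0.173).

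**Figure D3:**
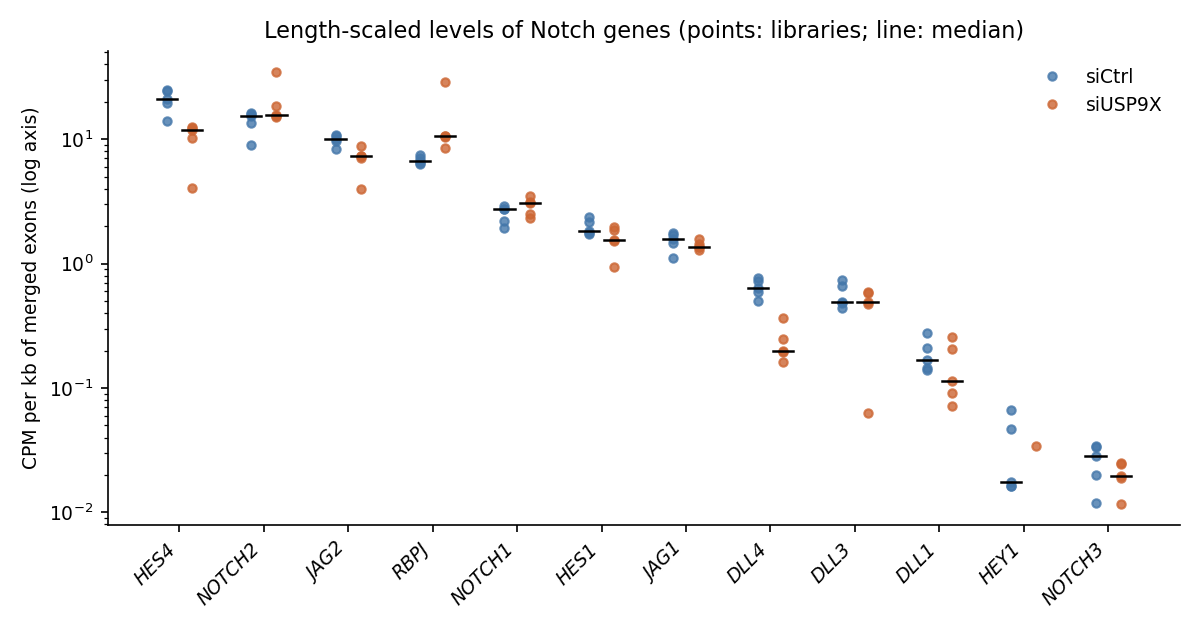
CPM per kilobase of merged exons (log axis) of Notch receptor, ligand and target genes in each library (points), with the median of each group (lines), ordered by the siCtrl mean. Libraries at 0 cannot be drawn, which leaves 1 siUSP9X point for HEY1, and NOTCH4 is left out because 1 siCtrl library held none. HES4 (20.7) and NOTCH2 (13.9) have the highest siCtrl means, and DLL4 (0.643) the lowest of the 3 ligands described here.

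Scaled to length, the order of the 10 genes in siCtrl cells was HES4, NOTCH2, JAG2, RBPJ, NOTCH1, HES1, JAG1, DLL4, HEY1 and NOTCH3, in CPM per kilobase of merged exons. HES4 stood at 20.7 ± 4.46 and NOTCH2 at 13.9 ± 2.99 (SD, n = 5 each), and their ranges overlapped. JAG2 stood at 9.86 ± 0.936, overlapping NOTCH2, and RBPJ at 6.78 ± 0.483, below all JAG2 values. Which of these overlap depends on the length used: per kilobase of the longest transcript JAG2 (10.8 ± 1.03) lay below all NOTCH2 values (20.6 ± 4.41) and overlapped RBPJ (10.5 ± 0.746). NOTCH1 (2.50 ± 0.401), HES1 (1.97 ± 0.286) and JAG1 (1.52 ± 0.259) formed a lower tier in which neighbours overlapped. DLL4 followed at 0.643 ± 0.107, and HEY1 and NOTCH3, at 0.0327 ± 0.0231 and 0.0256 ± 0.00950, overlapped. In siUSP9X cells NOTCH2 stood highest, at 19.7 ± 8.30, followed by RBPJ at 13.8 ± 8.40 and HES4 at 10.2 ± 3.57. Every NOTCH2 value (15.2 or more) lay above every HES4 value (12.6 or less). The order of RBPJ and HES4 was not settled: without replicate 2 they stood at 10.1 ± 1.03 and 11.8 ± 1.04 (SD, n = 4 each), and per kilobase of the longest transcript at 15.5 ± 1.58 and 12.7 ± 1.11.

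On the same scale NOTCH2 made up 84.3 ± 2.24% of the summed level of the 4 receptor mRNAs in siCtrl and 86.3 ± 2.81% in siUSP9X (SD, n = 5 each). Among the 5 canonical ligands, DLL1 and DLL3 included, JAG2 made up 77.1 ± 1.97% in siCtrl and 74.7 ± 5.09% in siUSP9X, or 76.8 ± 2.30% (n = 4) without replicate 2, which stood at 66.3%. The DLL4 share went from 5.04 ± 0.704% to 2.59 ± 0.759%, and the groups did not overlap, with 3.78% the highest siUSP9X value. The JAG1 share was 11.9 ± 2.16% in siCtrl and 16.4 ± 5.77% in siUSP9X, where replicate 2 stood at 26.5%.

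Beyond the 10 genes, 70 other genes of the pathway were read from lists by role, and 57 of them were tested. With edgeR 4 were higher (APH1B, FBXW7, MAML2 and MAML3), 4 were lower (DLK2, POFUT1, POGLUT1 and EPN2), and 49 did not pass the threshold. Over all tested genes the shares were 4.09% higher and 3.22% lower. The median log2 fold change of the 57 genes was 0.13, and 0.083 without siUSP9X replicate 2. Without siUSP9X replicate 2 there were 15 higher and 6 lower of 57, where the shares over all tested genes were 11.9% and 11.5%.

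**Figure D4:**
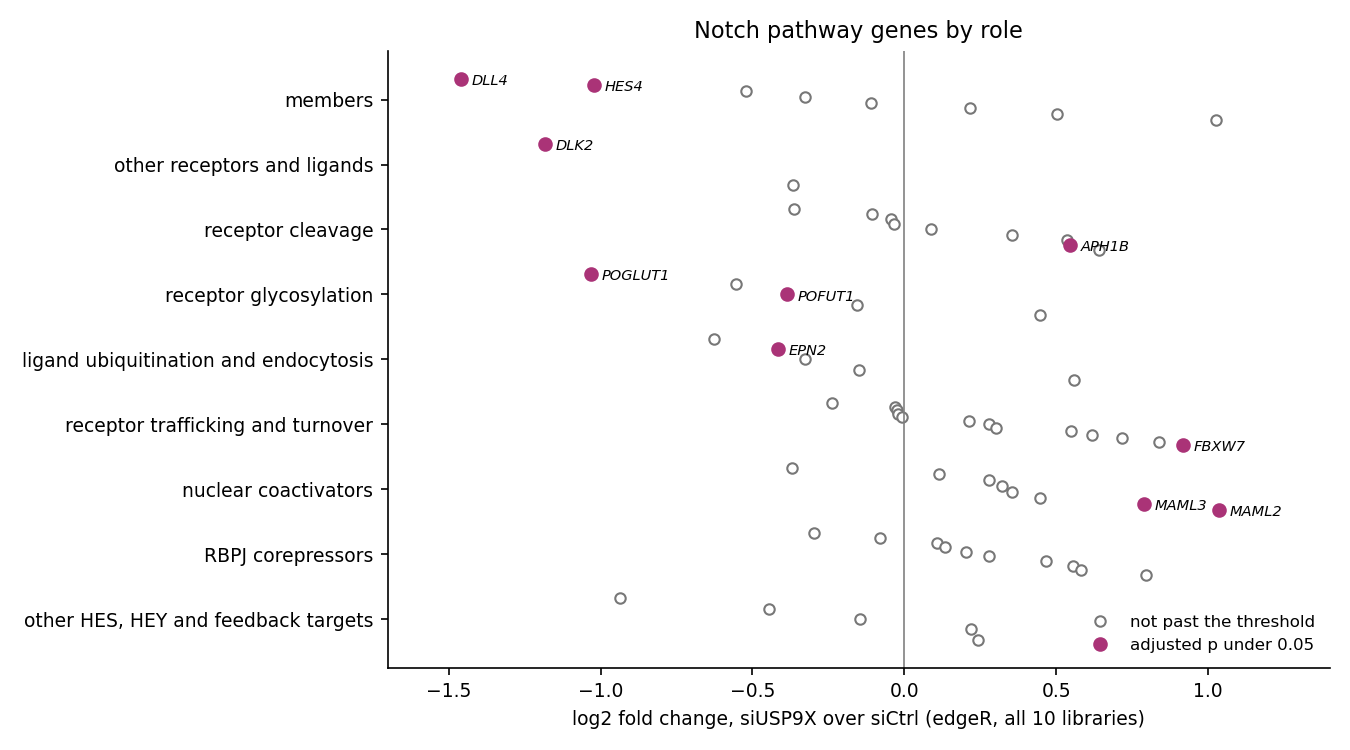
Log2 fold change of siUSP9X over siCtrl (edgeR, all 10 libraries) for every tested gene of each role list, 1 point per gene. Filled points pass an adjusted p under 0.05 and are named: DLL4 and HES4 among the 10 genes described here, and 8 other pathway genes.

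Of the 2 other ligands tested, DLK2 fell, where 3.22% of all tested genes were lower (edgeR), and DLL3 did not pass the threshold. DLK2, a membrane protein related to the Delta ligands that lacks the domain by which they activate Notch, went from 12.8 ± 3.23 to 5.65 ± 1.38 CPM (SD, n = 5 each; log2 fold change -1.18 ± 0.22, SE, edgeR adjusted p = 0.0120). Its groups did not overlap, and no single library decided the call in the 10 fits that left out 1. DLL3, a ligand that acts inside the cell, stood at 1.48 ± 0.344 and 1.15 ± 0.564 CPM, and its log2 fold change of -0.37 ± 0.41 became -0.078 ± 0.25 without siUSP9X replicate 2. DLL1 was too low to test, with 60 and 41 counts, as were the receptor NOTCH4, with 17 and 9, and DLK1, with 0 in both groups.

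The enzymes that modify the receptor gave 2 decreases among 5 tested with all libraries (edgeR), where 3.22% of all tested genes were lower. POFUT1 and POGLUT1 add fucose and glucose to the epidermal growth factor repeats of Notch in the endoplasmic reticulum. POFUT1 went from 213 ± 8.23 to 163 ± 4.62 CPM (SD, n = 5 each), and its log2 fold change was -0.39 ± 0.080 (SE, edgeR adjusted p = 0.0169). POGLUT1 went from 21.9 ± 2.06 to 10.7 ± 5.09 CPM (log2 fold change -1.03 ± 0.25, adjusted p = 0.0336). Its siUSP9X replicate 2 stood at 19.4 CPM against 7.02 to 11.2 CPM in the other 4, and leaving it out gave a log2 fold change of -1.36 (adjusted p = 1.22e-06). POFUT1 lost its call when siCtrl replicates 3, 4 or 5 were left out, and POGLUT1 when any library other than siUSP9X replicate 2 was. The fringe gene RFNG, which extends the fucose, and EOGT, which adds a different sugar, had log2 fold changes of -0.55 ± 0.27 and 0.45 ± 0.16 and did not pass the threshold. These were, without siUSP9X replicate 2, -0.34 ± 0.12 and 0.28 ± 0.094, and EOGT passed it (edgeR adjusted p of 0.0530 and 0.0365).

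Of 9 proteolysis genes 1 rose with all libraries (edgeR), where 4.09% of all tested genes were higher. With DESeq2 3 were higher, against 8.10%, and without siUSP9X replicate 2 (edgeR) 3 were, against 11.9%. APH1B, a gamma-secretase subunit, went from 13.5 ± 0.830 to 19.7 ± 4.23 CPM (SD, n = 5 each; log2 fold change 0.55 ± 0.14, SE, edgeR adjusted p = 0.0429), and the call held only in the fits without siUSP9X replicates 2 or 4. ADAM10, which makes the ligand-dependent cut, had a log2 fold change of 0.53 ± 0.15 (adjusted p = 0.0549), and 0.38 ± 0.082 (adjusted p = 0.00298) without siUSP9X replicate 2. The gamma-secretase subunits APH1A and NCSTN differed by less than the spread between libraries (log2 fold changes -0.11 ± 0.22 and -0.036 ± 0.11), and without siUSP9X replicate 2 their direction turned (0.071 ± 0.093 and 0.043 ± 0.076).

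USP9X is known to deubiquitinate several proteins of Notch trafficking, among them the E3 ligases MIB1, which acts on ligands, and ITCH, which acts on receptors, and its fly relative fat facets acts on epsin, an adaptor of ligand endocytosis. Only mRNA was measured here. Of the 5 tested genes for ligand ubiquitination and endocytosis 1 was lower with all libraries (edgeR), against 3.22% of all tested genes. This was the epsin gene EPN2, which went from 54.5 ± 5.77 to 40.9 ± 1.77 CPM (SD, n = 5 each). The log2 fold change of EPN2 was -0.42 ± 0.10 (SE, edgeR adjusted p = 0.0322). It kept its call when siCtrl replicates 1 or 2 or siUSP9X replicate 2 were left out, and lost it without any of the other 7 libraries. MIB1 mRNA did not pass the threshold, and its log2 fold change of 0.56 ± 0.32 became 0.070 ± 0.11 when siUSP9X replicate 2, at 338 CPM, was left out. EPN1, another epsin gene, had -0.33 ± 0.22 with that library and -0.14 ± 0.094 without it.

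Of 13 tested genes for receptor trafficking and turnover 1 was higher with all libraries (edgeR), against 4.09% of all tested genes. With DESeq2 5 were higher, against 8.10%, and without siUSP9X replicate 2 (edgeR) 5 were, against 11.9%. The gene higher with all libraries was FBXW7, the F-box protein that marks the nuclear Notch fragment for degradation. It went from 10.9 ± 1.19 to 20.5 ± 6.89 CPM (SD, n = 5 each), and its log2 fold change was 0.92 ± 0.20 (SE, edgeR adjusted p = 0.0216), and 0.70 without siUSP9X replicate 2, at 32.1 CPM the highest library. The call was lost without siCtrl replicates 2, 3, 4 or 5. ITCH stood at 271 ± 31.7 and 315 ± 139 CPM, and its log2 fold change turned from 0.21 ± 0.23 with all libraries to -0.10 ± 0.089 without siUSP9X replicate 2. The related ligases NEDD4 and NEDD4L had log2 fold changes of 0.84 ± 0.30 and 0.55 ± 0.17 (edgeR adjusted p of 0.103 and 0.0767). Their changes without siUSP9X replicate 2 were smaller, 0.40 ± 0.100 and 0.34 ± 0.078, and both passed the threshold (adjusted p of 0.00788 and 0.00428).

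In the nucleus 2 of the 8 tested coactivators rose with all libraries (edgeR), against 4.09% of all tested genes. These were MAML2 and MAML3 of the Mastermind-like family. With siUSP9X replicate 2 left out, 3 coactivators were higher and 1 lower (edgeR), against 11.9% and 11.5%. DESeq2 gave 2 higher and 1 lower, against 8.10% and 7.06%. MAML3 went from 8.24 ± 0.728 to 14.2 ± 2.22 CPM (SD, n = 5 each; log2 fold change 0.79 ± 0.13, SE, edgeR adjusted p = 0.00641) and kept its call in all 10 fits that left out 1 library. MAML2 went from 5.82 ± 1.25 to 11.9 ± 4.52 CPM (1.03 ± 0.24, adjusted p = 0.0277) and lost its call without siCtrl replicates 2, 3, 4 or 5 or siUSP9X replicate 1. The acetyltransferases EP300 and CREBBP and the cofactor SNW1 did not pass the threshold, with log2 fold changes of 0.45 ± 0.22, 0.32 ± 0.17 and 0.11 ± 0.10. When siUSP9X replicate 2 was left out they stood at 0.24 ± 0.14, 0.21 ± 0.12 and 0.048 ± 0.074. MAML1, the other gene of the Mastermind-like family, had 0.28 ± 0.11 (edgeR adjusted p = 0.137), and 0.31 ± 0.093 (adjusted p = 0.0218) without that library. MAML1 falls outside the naming rule and was added after its values were seen. None of the 10 tested RBPJ corepressors passed with edgeR or limma-voom on all libraries. Without siUSP9X replicate 2, 3 were higher and none lower (edgeR), against 11.9% and 11.5% of all tested genes. With DESeq2 1 was higher, against 8.10%, and 5 were higher at an unadjusted p under 0.05 (edgeR), against 15.9%. Among the abundant ones, SPEN and NCOR1 had log2 fold changes of 0.58 ± 0.24 and 0.55 ± 0.25, which became 0.33 ± 0.15 and 0.22 ± 0.11 without siUSP9X replicate 2.

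Other HES, HEY and feedback genes gave no call with edgeR or limma-voom among 5 tested. HES6, a HES relative that counteracts HES1, was the 1 gene lower with DESeq2 and the 1 at an unadjusted p under 0.05 (edgeR), at 17.9 ± 3.80 and 9.36 ± 3.98 CPM (SD, n = 5 each; log2 fold change -0.94 ± 0.33, SE, adjusted p = 0.0983). It passed the threshold without siUSP9X replicate 2, at -0.70 ± 0.15 (edgeR adjusted p = 0.00221), where 11.5% of all tested genes were lower. The feedback inhibitor NRARP, a direct Notch target, stood at 2.68 ± 0.880 and 1.96 ± 0.618 CPM (log2 fold change -0.45 ± 0.29, and -0.25 ± 0.23 without that library), and BHLHE40 at 319 ± 23.2 and 288 ± 28.4 CPM (-0.15 ± 0.10, and -0.090 ± 0.073 without it). HEYL and HES3 had 0 counts in both groups, which by a floor of 3 counts allows up to 0.0298 CPM in siCtrl and 0.0350 CPM in siUSP9X, and HES5 had 0 and 1.

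**Figure D5:**
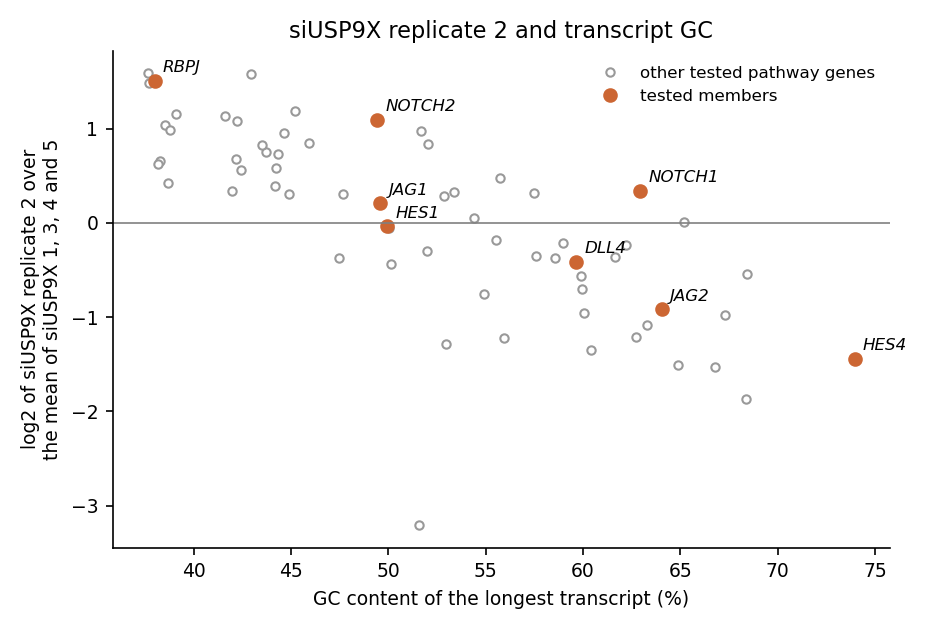
Log2 ratio of siUSP9X replicate 2 to the mean of the other 4 siUSP9X libraries (CPM with 0.5 added) against the GC content of each gene's longest transcript, for the 8 tested Notch genes (filled, named) and the other tested pathway genes (open). RBPJ, at 38.0% GC, lies at 1.51, and HES4, at 73.9% GC, at -1.44.

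The distance of siUSP9X replicate 2 from the other siUSP9X libraries ran with the base composition of the transcript. RBPJ (38.0% GC) lay 1.51 above them on the log2 scale and NOTCH2 (49.4%) 1.10 above, while JAG2 (64.0%) lay 0.92 below and HES4 (73.9%) 1.44 below. NOTCH1, at 62.9% GC, lay 0.34 above, so not every gene followed that order. Over 13868 tested genes the Pearson correlation of this ratio with GC content was -0.64 and with log2 transcript length 0.48. These are correlations across genes within 1 library, and genes are not independent replicates. With offsets for transcript length and GC content in each library, an alternative added after the data were seen, the log2 fold change was -0.56 for HES4 (edgeR adjusted p = 0.00145), -0.42 for JAG2 (0.00424), 0.59 for RBPJ (0.00322) and -1.28 for DLL4 (0.00186). The other tested Notch genes did not pass: NOTCH1 at 0.26 (0.226), NOTCH2 at 0.22 (0.242), JAG1 at -0.20 (0.163) and HES1 at -0.16 (0.615). Over all genes that fit called 1546 higher and 1483 lower, against 570 and 449 in the main fit.

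The genes whose profile over the 10 libraries was most like that of DLL4 were GTF3C2, HFE and TOR1B, and for HES4 they were PRDX2, TMED9 and UBALD2. Likeness is the root mean square difference in log2(CPM + 0.5), each gene centred on its siCtrl mean, among genes with a mean of at least 5 CPM. It was 0.196, 0.236 and 0.238 for the first set and 0.133, 0.151 and 0.154 for the second. The log2 fold changes (edgeR) of GTF3C2, HFE and TOR1B were -1.17, -0.97 and -1.27, against -1.46 for DLL4. DLL4 stood at 3.06 and 1.11 CPM, so the added 0.5 makes its change smaller in this measure than in the fit. Those of PRDX2, TMED9 and UBALD2 were -1.05, -0.82 and -0.81, against -1.02 for HES4.

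Annotated 3′ UTRs in GENCODE were searched on the transcript strand for the word AATCACA, with its overlapping partner ATCACAA, and for the word CAACTCT, with its overlapping partner AACTCTA. These 4 words had been picked earlier from the fold changes of this data set, so their share among lower genes is no evidence and is not given. At least 1 of them was found in 33.7% of 11908 tested genes with an annotated 3′ UTR. Of the Notch genes, those of NOTCH2, JAG1 and HEY1 held 1 or more, and those of DLL4, HES4, JAG2, RBPJ, HES1, NOTCH1 and NOTCH3 held none.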

How the data were processed

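The 10 members, the role lists, the markers and the rule for the genes named were chosen with earlier results of these data known. Pathway genes named are those past the threshold and, in lists with fewer than 3 of these, the 3 with the highest mean CPM, of which 1 gene is not reported here. For each member past the threshold the 3 most alike genes are named.

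The deposited table holds whole-number counts per gene symbol, 1 column per library, which the authors did not normalize, judging by its values. hg38, RSEM and DESeq2 are listed, without role or order, in the submitters' processing notes, so the counts may be rounded estimates in which reads of similar genes were already split. Per the labels' protocols the libraries were stranded and made from mRNA. The aligner and annotation are not given in the sources used here. Symbols were matched to GENCODE 29 (GRCh38), where 96.91% of lines matched 1 gene, and promoters come from RefSeq (GRCh38.p14).

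Genes were tested with edgeR 4.0.16 in R 4.3.3 (glmQLFit with robust estimation, glmQLFTest) on counts as deposited, with TMM factors, filterByExpr at a minimum count of 10, group as the only term, and two-sided p-values adjusted by Benjamini-Hochberg over all 13934 tested genes. SE is the log2 fold change divided by the square root of F. Tests were checked on simulated data. The counts simulated for edgeR held no outlying library, so that check does not cover one like siUSP9X replicate 2. The alternatives used upper-quartile factors, DESeq2 size factors, library totals, no filter, 5 CPM in 5 libraries, DESeq2 1.42.0, limma-voom (limma 3.58.1), the replicate block, and each library left out. Length and GC offsets, the block without replicate number 2, and longest-transcript length were added after seeing the data. Every pair of replicates differed beyond counting noise (lowest chi-square over its degrees of freedom 5.25). This does not show that the libraries are separate cultures, and each was counted as 1 sample. Depth limits low genes: 3 counts over a group correspond to 0.0298 CPM in siCtrl and 0.0350 CPM in siUSP9X.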

Additional observations from a re-analysis of the deposited data

Results flagged for a closer look

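In 18 of 74 sets of 5 libraries, 1 library lay further from the others than Dixon's criterion allows, which chance gives in about 1 of 20 sets, and 17 of the 18 were siUSP9X replicate 2. That library was far above the other siUSP9X libraries for NOTCH2 (578 CPM against 307 in the nearest library), RBPJ (266 against 98.7), ADAM10 (452 against 304), EOGT (114 against 77.5), EP300 (257 against 158), ITCH (562 against 270), MIB1 (338 against 120), NCOR1 (585 against 274), NEDD4 (712 against 280), NEDD4L (795 against 491) and SPEN (497 against 285). It was far below them for HES4 (4.53 CPM against 11.5), APH1A (71.2 against 162), DLL3 (0.166 against 1.23), EPN1 (39.6 against 90.6), NRARP (0.885 against 2.05) and RFNG (7.30 against 20.6). In siCtrl replicate 2, CREBBP stood at 78.1 CPM against 122 in the nearest library. Genes of 1 library are not independent of each other.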

How the results depend on the processing

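The 8 tested Notch genes kept the direction of their log2 fold change under every alternative that gave a value. DLL4 kept its call in all 19 of its alternatives (adjusted p up to 0.0468), HES4 in 8 of 20, and RBPJ and JAG2 passed the threshold in 6 and 4 of 20. Lower Notch genes numbered 1, in place of 2, with upper-quartile factors, library totals, no filter, 5 CPM in 5 libraries (which drops DLL4 and HES1) and the replicate block, and 1 to 3 with 1 library left out. Higher ones numbered 1, in place of 0, with library totals, DESeq2, the length and GC offsets and the block without number 2, and 0 to 1 with 1 library left out. Of the other pathway genes 4 were higher with all libraries, but 7 with library totals or 5 CPM in 5 libraries, 11 with DESeq2, 13 with the offsets or the block without number 2, 0 with the replicate block, and 1 to 15 with 1 library left out (15 without siUSP9X replicate 2). There were 4 lower, but 2 with no filter, 0 with the replicate block, 7 with the block without number 2, and 1 to 6 with 1 library left out. Over all genes 570 were higher and 449 lower, against 1134 and 988 with DESeq2, 1546 and 1483 with the offsets, 1582 and 1855 with the block without number 2, 34 and 57 with the replicate block, and 170 to 1674 and 189 to 1620 with 1 library left out. With the replicate block HES4 had an adjusted p of 0.181 and DLL4 of 0.0468. Same-numbered libraries share only a number: their deviations correlated at -0.42 to 0.23 over tested genes, and 1 of the 5 siCtrl libraries correlated best with its own number. The cause of these differences was not tested. With the longest transcript as length, NOTCH2 made up 87.7% of receptor mRNA in siCtrl and 89.3% in siUSP9X, JAG2 72.5 and 69.5% of ligand mRNA, JAG1 16.0% and DLL4 5.98% in siCtrl. Depth limits NOTCH3 and HEY1, which the counts cannot resolve.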
